A study of Homo sapiens with 12 samples.

Results

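The genes described here are 36 genes of cholesterol and fatty acid metabolism. Many are driven by, or control, the sterol regulatory element-binding proteins (SREBPs), but not all, and MYLIP is known as a target of liver X receptors. All 36 were found among the 58174 genes of the expression table by their GENCODE 29 symbols. The list was drawn up with earlier results of these data known. By role they comprised 7 genes of the mevalonate steps, 11 of the squalene and sterol steps, 5 of SREBP control, 6 of sterol uptake, transport, efflux and storage, and 7 of fatty acid synthesis. The cells were HCT116, an established colorectal carcinoma line of human origin. They received dolastatin 15, a tubulin-binding peptide of marine origin that blocks microtubule assembly, and their poly(A)-selected RNA was sequenced. There were 6 groups of 2 libraries each: 20 nM dolastatin 15, 100 nM dolastatin 15 and solvent, each after 16 h and after 24 h. All groups, solvent included, were kept in 0.25% DMSO in medium with 5% serum, and the labels name no genetic change. Treatments were made in duplicate, but whether duplicates were separate cultures is not stated, so the p-values below rest on a spread between samples that may be technical alone.

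Cholesterol is built from acetyl-CoA through mevalonate, isoprenoid phosphates, squalene and a series of sterol intermediates. When membrane sterol is low, the escort protein SCAP carries SREBP precursors from the endoplasmic reticulum to the Golgi, where proteases release the active transcription factor. When sterol is high, INSIG proteins hold SCAP in the endoplasmic reticulum. SREBF2 encodes the form that chiefly drives sterol genes, and SREBF1 the forms that also drive fatty acid genes. Tumour cells in culture commonly run both branches to supply membrane.

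SREBPs bind promoter elements together with the factors NF-Y and Sp1, so the stretches upstream of the start site are printed for chosen members. Of the 32 members with a promoter window, SREBF2 alone held the consensus sterol element searched. INSIG1, STARD4 and SCD fell in every drug comparison, and MYLIP rose at 16 h. The sequences are from RefSeq on GRCh38.p14, 5′ to 3′ on the gene's strand. Capitals mark matches on either strand to TCACNCCAC (sterol regulatory element), CCAAT (NF-Y box) or GGGCGG (Sp1 box).
SREBF2: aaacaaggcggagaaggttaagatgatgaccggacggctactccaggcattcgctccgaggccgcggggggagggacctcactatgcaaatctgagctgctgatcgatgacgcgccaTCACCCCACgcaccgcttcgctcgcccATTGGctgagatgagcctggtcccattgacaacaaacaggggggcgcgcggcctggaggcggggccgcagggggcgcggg
INSIG1: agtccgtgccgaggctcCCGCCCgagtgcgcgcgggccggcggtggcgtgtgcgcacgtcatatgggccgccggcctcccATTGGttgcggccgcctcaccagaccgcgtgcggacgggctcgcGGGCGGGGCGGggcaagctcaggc
STARD4: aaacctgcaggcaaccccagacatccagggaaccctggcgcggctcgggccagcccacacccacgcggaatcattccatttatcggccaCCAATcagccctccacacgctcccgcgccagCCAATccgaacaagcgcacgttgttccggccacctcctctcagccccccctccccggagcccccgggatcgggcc
SCD: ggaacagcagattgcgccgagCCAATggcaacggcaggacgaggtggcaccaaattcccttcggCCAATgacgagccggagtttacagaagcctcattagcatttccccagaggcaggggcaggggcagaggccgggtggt
MYLIP: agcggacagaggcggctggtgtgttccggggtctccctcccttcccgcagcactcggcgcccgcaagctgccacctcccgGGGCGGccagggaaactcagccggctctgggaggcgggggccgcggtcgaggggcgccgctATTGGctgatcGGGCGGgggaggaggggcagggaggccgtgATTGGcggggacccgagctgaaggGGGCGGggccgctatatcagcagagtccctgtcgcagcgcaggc
The stretches lie at chr22:41832855-41833078 (SREBF2, plus strand), chr7:155297628-155297775 (INSIG1, plus), chr5:111512591-111512785 (STARD4, minus), chr10:100346983-100347123 (SCD, plus) and chr6:16128836-16129085 (MYLIP, plus), and each begins 250 bases before the start site. In SREBF2 the sterol element TCACCCCAC began 133 bases before the start, with a reverse CCAAT 106 bases before it. INSIG1 held a reverse CCAAT 170 bases before the start and a forward pair of GGGCGG, the first 126 bases before the start, that overlap by 1 base, the only overlap of matches in the printed stretches. STARD4 and SCD each held a pair of forward CCAAT matches, and MYLIP a reverse pair with 3 forward GGGCGG.

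Of the 36 members, 32 had windows of 300 bases in the RefSeq table, 43 windows in all, and ACAT2, FDFT1, SQLE and FASN had none. CCAAT was in 27 of the 43 windows (62.8%, 23 genes) against 34.6% of all 35116 windows. GGGCGG was in 39 (90.7%, 31 genes) against 45%, the E-box CACGTG in 6 (14%, 5 genes) against 7.26%, and TCACNCCAC in 1 (2.33%) against 1.13%. All windows were counted with no filter on expression in these cells, and overlapping windows of one gene counted separately. Each motif was searched on both strands, and a match describes letters only.

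Libraries carry the numbers of the table. At 16 h, 1 and 2 received 20 nM, 3 and 4 received 100 nM and 5 and 6 solvent. At 24 h, 7 and 8 received 20 nM, 9 and 10 received 100 nM and 11 and 12 solvent. Values are FPKM, fragments per transcript length scaled to the fragments mapped in a library, and the read depth behind them is unknown. FPKM sums ran from 911720.3 to 1049886. Mitochondrially encoded genes held 23.8% and 25.8% of the sum with 20 nM at 24 h, 17.9% and 18.6% in its solvent and 18.8% to 24.5% in the other libraries. Of the epithelial markers, EPCAM, KRT8, KRT18 and KRT19 were at 204 FPKM or more in every library, CDH1 was at 2.91 to 3.92 and VIL1 stayed at or under 0.22. Of 8 markers of other cell types, 7 stayed at or under 0.55 FPKM, and COL1A1 was at 1.44 to 4.34. In bulk RNA, fewer cells expressing a gene and less RNA per cell cannot be told apart.

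Among the members, enzymes of both fatty acid and sterol synthesis had the highest levels per transcript length. In solvent at 16 h, FASN was at 331 ± 5.10, FDFT1 at 218 ± 3.54, SCD at 208 ± 6.83 and FDPS at 168 ± 0.594 FPKM (SD, n = 2). The means of FDFT1 and SCD lay within the sum of their SDs. SREBF2 (45.9 ± 1.68) was above SREBF1 (39.2 ± 1.10), and INSIG1 (33.8 ± 0.424) above INSIG2 (3.30 ± 0.226). MYLIP, at 2.55 ± 0.191 FPKM, was the lowest of the tested members in that group. A gene was tested when at least 2 of the 12 libraries had at least 1 FPKM, and 34 members met this among 13458 genes. SQLE, the squalene epoxidase, was listed at 0.15 to 0.62 FPKM across the 12 libraries, and ABCA1, the cholesterol efflux pump, at 0 in 11 and at 0.0100 in library 1, so neither was tested.

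Of the members that passed the test against solvent, nearly all fell with dolastatin 15, and more passed at 24 h than at 16 h. Calls required an adjusted p under 0.05 (limma on log2(FPKM + 1), Benjamini-Hochberg over all tested genes), and the scale understates changes of low genes. With 20 nM at 16 h, 15 of the 34 fell (44.1%, beside 11% of all tested genes lower) and 1 rose (beside 6.78%). With 100 nM at 16 h, 9 fell (26.5%, beside 14.7%) and 1 rose (beside 9.16%). At 24 h, 24 fell and 0 rose with 20 nM (70.6%, beside 14.1% lower and 14.7% higher). With 100 nM, 21 fell (61.8%, beside 18.4%) and 1 rose (beside 15.4%). At an unadjusted p under 0.05 (limma), 19, 15, 26 and 23 members changed in either direction, beside 32.1%, 36.6%, 40.7% and 44.7%. Without library 1 or library 5, 9 members were called with 20 nM at 16 h in place of 16. The shares of all genes called in each direction at 24 h moved with the scaling. Rescaled to a common sum (TPM), 26 members fell and 0 rose with 20 nM at 24 h, beside 34.4% of all genes lower and 4.21% higher. The 100 nM comparison at that time then had 22 that fell and 1 that rose, beside 27.6% and 8.45%.

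The medians of the 34 log2 changes were -0.21, -0.083, -0.34 and -0.36, in the order 20 nM and 100 nM at 16 h, then 20 nM and 100 nM at 24 h. The medians of all tested genes were -0.025, -0.028, 0.00178 and -0.024. Both treated libraries lay below both solvent libraries for 23, 19, 26 and 23 of the 34 members, beside 36.1%, 36%, 31.1% and 37.9% of all tested genes. Both lay above for 2, 3, 4 and 4 members, beside 27.1%, 26.6%, 31.5% and 32%.

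ACAT2, FDFT1, INSIG1, SREBF1, SREBF2, STARD4, SCD and FADS1 fell in all 4 drug comparisons (8 of 34, beside 3.67% of all tested genes). None rose in all 4 (0, beside 2.07%). FDFT1, INSIG1, SCD, SREBF1 and STARD4 kept all 4 calls when any library was left out and under every other setting tried. HMGCS1, NSDHL, EBP, SC5D, INSIG2, SCAP, NPC1 and ELOVL6 passed in none of the 4 comparisons at the values as deposited. Comparisons at one time share their solvent libraries.

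**Figure D1:**
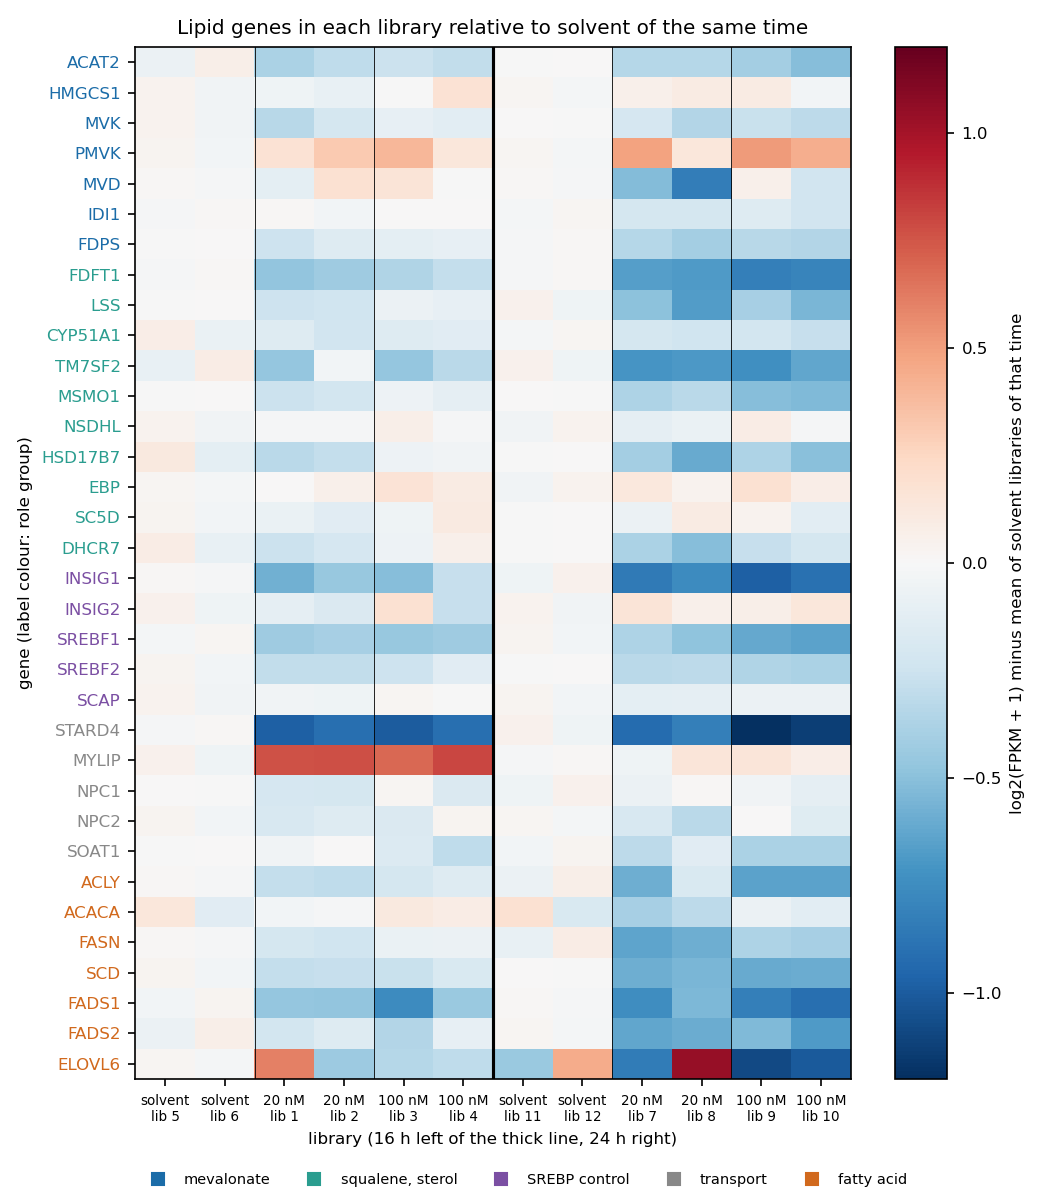
Each cell is log2(FPKM + 1) of a tested gene in 1 of the 12 libraries minus the mean of the 2 solvent libraries of its time, with blue for lower and red for higher; gene labels are coloured by role. Blue cells for STARD4, INSIG1, FDFT1, SREBF1, SCD and FADS1 run through all 8 treated libraries, and ELOVL6 is uneven between libraries of one group.

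Among the regulators, the genes for both SREBPs and for INSIG1 fell in every comparison, 3 of 5 genes each time, while SCAP and INSIG2 did not pass. INSIG1 (chromosome 7, 155297776 to 155310235 on GRCh38) encodes the sterol-dependent anchor of SCAP and is itself an SREBP target. INSIG1 stood at 34.1 and 33.5 FPKM in solvent, 22.3 and 24.3 with 20 nM and 23.4 and 27.6 with 100 nM at 16 h. At 24 h, in the same order, its levels were 44.3 and 47.4, 25.1 and 26.7, and 22.8 and 24.1 FPKM. Every treated library was below every solvent library, and solvent itself was higher at 24 h. The 24 h mean fell from 45.8 ± 2.22 in solvent to 25.9 ± 1.15 with 20 nM and 23.4 ± 0.912 with 100 nM (SD, n = 2). The log2 changes were -0.52, -0.40, -0.80 and -0.94, in the order used above (SE 0.080 each, adjusted p = 0.00295, 0.00792, 0.000259 and 7.38e-05).

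SREBF1 (chromosome 17, 17810399 to 17837002) and SREBF2 (chromosome 22, 41833079 to 41907308) are both known to be activated by their own products. SREBF1 stood at 38.4 and 39.9 FPKM in solvent, 28.96 and 29.4 with 20 nM and 28.4 and 28.9 with 100 nM at 16 h. The 24 h levels were 46.0 and 43.9, 34.6 and 31.8, and 29.1 and 28.4 FPKM. Its treated libraries did not overlap solvent at either time, and its log2 changes were -0.41, -0.44, -0.43 and -0.63 (adjusted p = 0.000985, 0.000429, 0.000539 and 5.11e-05). SREBF2 stood at 47.1 and 44.7 FPKM in solvent, 37.2 and 37.2 with 20 nM and 38.5 and 41.8 with 100 nM at 16 h. At 24 h it stood at 48.8 and 49.0, 38.9 and 39.1, and 37.9 and 37.3 FPKM, again with no overlap. Its log2 changes were smaller than those of SREBF1 in each comparison, -0.29, -0.19, -0.32 and -0.37 (adjusted p = 0.00362, 0.0196, 0.00167 and 0.000593), a difference between the genes that was not tested. SCAP, the escort protein, had log2 changes of -0.048, 0.0098, -0.11 and -0.071, and INSIG2, the second anchor, -0.14, -0.050, 0.11 and 0.10. Rescaled to a common sum (TPM) or to a common sum over nuclear genes, SCAP passed at 24 h with both doses, with log2 changes of -0.29 and -0.18 at 20 nM and -0.17 and -0.14 at 100 nM. With 100 nM at 16 h the call ended for SREBF2 without library 3 or 5 (adjusted p = 0.116 to 0.120), and with the 16 h libraries alone. Of the 36 members, 12 are overlapped by another tested gene, SREBF1 by RAI1 and SREBF2 by SREBF2-AS1, and the strand setting of the counting is not given in the sources used here.

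Of the 7 genes of the mevalonate steps, 3 fell with 20 nM and 1 with 100 nM at 16 h, and 5 and 4 fell at 24 h. The 1 of 7 with 100 nM at 16 h (14.3%) was no more than the 14.7% of all tested genes lower. FDPS also passed there by TPM (-0.144) and after rescaling over nuclear genes (-0.118). ACAT2, the cytosolic thiolase of the first step, fell in all 4 comparisons. Its levels at 16 h were 31.6 and 35.1 FPKM in solvent, 25.4 and 26.7 with 20 nM and 27.7 and 27.0 with 100 nM, and at 24 h 39.4 and 39.7, 31.0 and 30.9, and 29.5 and 27.6. Treated and solvent libraries did not overlap at either time, and the log2 changes were -0.34, -0.28, -0.34 and -0.46 (adjusted p = 0.00446, 0.00898, 0.00292 and 0.000529). HMGCS1, the HMG-CoA synthase that follows, passed nowhere, with 64.0 ± 1.28 FPKM in solvent, 67.6 ± 1.34 with 20 nM and 65.5 ± 4.55 with 100 nM at 24 h (SD, n = 2). Its log2 changes were -0.071, 0.081, 0.078 and 0.032, and the 95% interval at 100 nM and 24 h was -0.12 to 0.18.

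The mevalonate kinase MVK fell with 20 nM at 16 h (-0.28) and with both doses at 24 h (-0.28 and -0.29). FDPS, which makes farnesyl diphosphate, fell in the same comparisons (-0.20, -0.37 and -0.34). IDI1, the isomerase between them, fell at 24 h with both doses (-0.21 and -0.19), and its 16 h changes of -0.0098 and 0.0043 did not pass. MVD, the mevalonate diphosphate decarboxylase, and PMVK, phosphomevalonate kinase, had patterns of their own. MVD stood at 104 and 101 FPKM in solvent at 24 h, 71.3 and 57.3 with 20 nM and 107 and 87.5 with 100 nM. The 20 nM libraries were below all others, and the log2 change was -0.67 with 20 nM (adjusted p = 0.00604) and -0.081 with 100 nM (adjusted p = 0.675). PMVK stood at 13.7 and 13.2 FPKM in solvent, 19.1 and 14.8 with 20 nM and 19.5 and 18.5 with 100 nM. It was the only member that rose with 100 nM at 24 h (0.47, adjusted p = 0.0144), and with 20 nM its change was 0.31 (adjusted p = 0.0821).

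Some of these calls ended when 1 library was left out, in some cases with a change that was no smaller. With 20 nM at 16 h, the call ended for MVK without library 1 or 5 (adjusted p = 0.121 to 0.129) and for FDPS without library 1, 5 or 6 (adjusted p = 0.0517 to 0.0793). With 100 nM at 16 h it ended for ACAT2 without library 4 or 6 (adjusted p = 0.0523 to 0.0602). At 24 h it ended for MVK without library 8, 11 or 12 (adjusted p = 0.0525 to 0.0597) with 20 nM, and with 100 nM for MVK without library 10 (adjusted p = 0.0531), IDI1 without library 10 or 12 (adjusted p = 0.0548 to 0.0589) and PMVK without library 9, 11 or 12 (adjusted p = 0.0517 to 0.0791). ACAT2, MVK, IDI1 and FDPS are each overlapped by another tested gene (TCP1, MMAB, IDI2-AS1 and RUSC1-AS1).

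The squalene and sterol steps had 10 tested genes, of which 5 fell with 20 nM and 1 with 100 nM at 16 h and 7 fell with each dose at 24 h, and none rose. The 1 of 10 with 100 nM at 16 h (10%) was under the 14.7% of all tested genes lower. By TPM, CYP51A1 (-0.181) and TM7SF2 (-0.423) also passed there, and CYP51A1 did so after rescaling over nuclear genes (-0.155). FDFT1, the squalene synthase that commits farnesyl diphosphate to sterols (chromosome 8, 11795573 to 11839309), fell by the most of the called genes in 3 of the 4 comparisons. FDFT1 stood at 215 and 220.2 FPKM in solvent, 157 and 161 with 20 nM and 169 and 178 with 100 nM at 16 h. After 24 h its levels were 258 and 262, 164 and 162, and 146 and 149.9 FPKM. Treated libraries were below solvent without overlap at both times, and solvent was higher at 24 h than at 16 h. The log2 changes were -0.45, -0.33, -0.67 and -0.81 (SE 0.037, adjusted p = 0.000117, 0.000434, 2.00e-05 and 2.78e-06). At 24 h the mean was 37.4% lower with 20 nM and 43.0% lower with 100 nM.

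Downstream of squalene, the lanosterol synthase LSS fell at 24 h with both doses (-0.58 and -0.47) and with 20 nM at 16 h (-0.24), as did the sterol oxidase MSMO1 (-0.34, -0.52 and -0.24). The demethylase CYP51A1 (-0.23, -0.25 and -0.19) and the ketosteroid reductase HSD17B7 (-0.50, -0.44 and -0.30) fell in the same 3 comparisons. TM7SF2, a sterol C14 reductase, fell at 24 h and stood at 9.69 and 8.92 FPKM in solvent, 5.31 and 5.38 with 20 nM and 5.19 and 5.70 with 100 nM. Its 24 h libraries did not overlap solvent (log2 changes -0.70 and -0.68, adjusted p = 0.00509 and 0.00466), and at 16 h its changes were -0.25 and -0.39 and did not pass. DHCR7, which makes cholesterol from its last precursor, fell at 24 h with 20 nM (-0.45, adjusted p = 0.00223) and 100 nM (-0.24, adjusted p = 0.0272). The latter call ended with no filter (adjusted p = 0.0675, limma). With 20 nM at 16 h DHCR7 did not pass in the main setting. It passed there with a minimum of 5 FPKM (-0.23), by TPM (-0.22) and after rescaling over nuclear genes (-0.23). Within the same stretch of the pathway, NSDHL, EBP and SC5D passed in no comparison at the values as deposited. NSDHL passed with 20 nM at 24 h by TPM (-0.28, adjusted p = 0.00531) and after rescaling over nuclear genes (-0.16, adjusted p = 0.0428). EBP, the sterol isomerase, stood at 119.9 and 127 FPKM in solvent, 135 and 127 with 20 nM and 140.0 and 131 with 100 nM at 24 h, where all the treated libraries were above both solvent libraries, by 127.4 against 127.3 at the closest (log2 changes 0.084 and 0.13). Under median-of-ratios scaling EBP passed with 100 nM at 16 h (0.17) and 24 h (0.16).

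The calls at 20 nM and 16 h ended for LSS when any 1 of 8 libraries was left out (adjusted p = 0.0581 to 0.173), CYP51A1 when any 1 of 9 libraries was left out (adjusted p = 0.0550 to 0.219) and HSD17B7 when any 1 of 9 libraries was left out (adjusted p = 0.0581 to 0.259). Without library 5 the change was -0.12 for CYP51A1 and -0.19 for HSD17B7. The LSS, CYP51A1 and HSD17B7 calls at 20 nM and 16 h each also ended under 4 other settings. Among these were no filter, median-of-ratios scaling and a constant prior. At 24 h the call ended for CYP51A1 without library 12 (adjusted p = 0.0775) with 20 nM, and with 100 nM for CYP51A1 without library 10 or 12 (adjusted p = 0.0523 to 0.0528) and DHCR7 without library 9, 10, 11 or 12 (adjusted p = 0.0585 to 0.141). TM7SF2 is overlapped by VPS51 and DHCR7 by AP002387.1.

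Among the transport genes, STARD4 fell by the most of all called members in every comparison, and MYLIP was the one member that rose at 16 h. STARD4 is a soluble carrier that moves cholesterol between membranes and is a known SREBP2 target (chromosome 5, 111496033 to 111512590). STARD4 stood at 17.2 and 17.5 FPKM in solvent, 8.34 and 8.81 with 20 nM and 8.21 and 8.81 with 100 nM at 16 h. The corresponding 24 h levels were 18.8 and 17.4, 9.04 and 9.83, and 7.07 and 7.73 FPKM. All 8 treated libraries lay between 7.07 and 9.83 FPKM, under every solvent library. The log2 changes at 24 h were -0.87 with 20 nM and -1.19 with 100 nM (SE 0.069, adjusted p = 9.66e-05 and 9.91e-06), the latter a mean 59.1% lower. At 100 nM and 16 h the change was -0.95 (adjusted p = 3.09e-05).

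MYLIP encodes a ubiquitin ligase, also called IDOL, that is induced by liver X receptors and targets lipoprotein receptors for degradation (chromosome 6, 16129125 to 16148248). MYLIP stood at 2.68 and 2.41 FPKM in solvent, 5.00 and 5.04 with 20 nM and 4.72 and 5.18 with 100 nM at 16 h. Its levels after 24 h were 3.47 and 3.57, 3.35 and 3.99, and 4.0 and 3.79 FPKM. At 16 h the 4 treated libraries lay well above both solvent libraries, and at 24 h the 20 nM libraries overlapped solvent. The 16 h mean rose from 2.55 ± 0.191 to 5.02 ± 0.0283 with 20 nM and 4.95 ± 0.325 with 100 nM (SD, n = 2; log2 changes 0.77 and 0.75, adjusted p = 0.000734 and 0.000509). At 24 h the changes were 0.044 and 0.11 and did not pass (adjusted p = 0.745 and 0.347). Of the remaining transport genes, SOAT1, which esterifies cholesterol for storage, fell at 24 h (-0.23 and -0.38) and with 100 nM at 16 h (-0.23). NPC2, the lysosomal sterol carrier, fell with 20 nM at 24 h (-0.26, adjusted p = 0.0338), while its partner NPC1 had changes of -0.21, -0.077, -0.026 and -0.078 and passed nowhere. The call ended for SOAT1 when any 1 of 9 libraries was left out (adjusted p = 0.0587 to 0.224) with 100 nM at 16 h, and with 20 nM at 24 h for SOAT1 when any 1 of 9 libraries was left out (adjusted p = 0.0613 to 0.207) and NPC2 without library 8, 11 or 12 (adjusted p = 0.0867 to 0.152). The SOAT1 change with 20 nM at 24 h was -0.14 without library 7. The same SOAT1 and NPC2 calls also ended with no filter and with the libraries of their own time alone. NPC1 is overlapped by RMC1 and NPC2 by ISCA2.

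**Figure D2:**
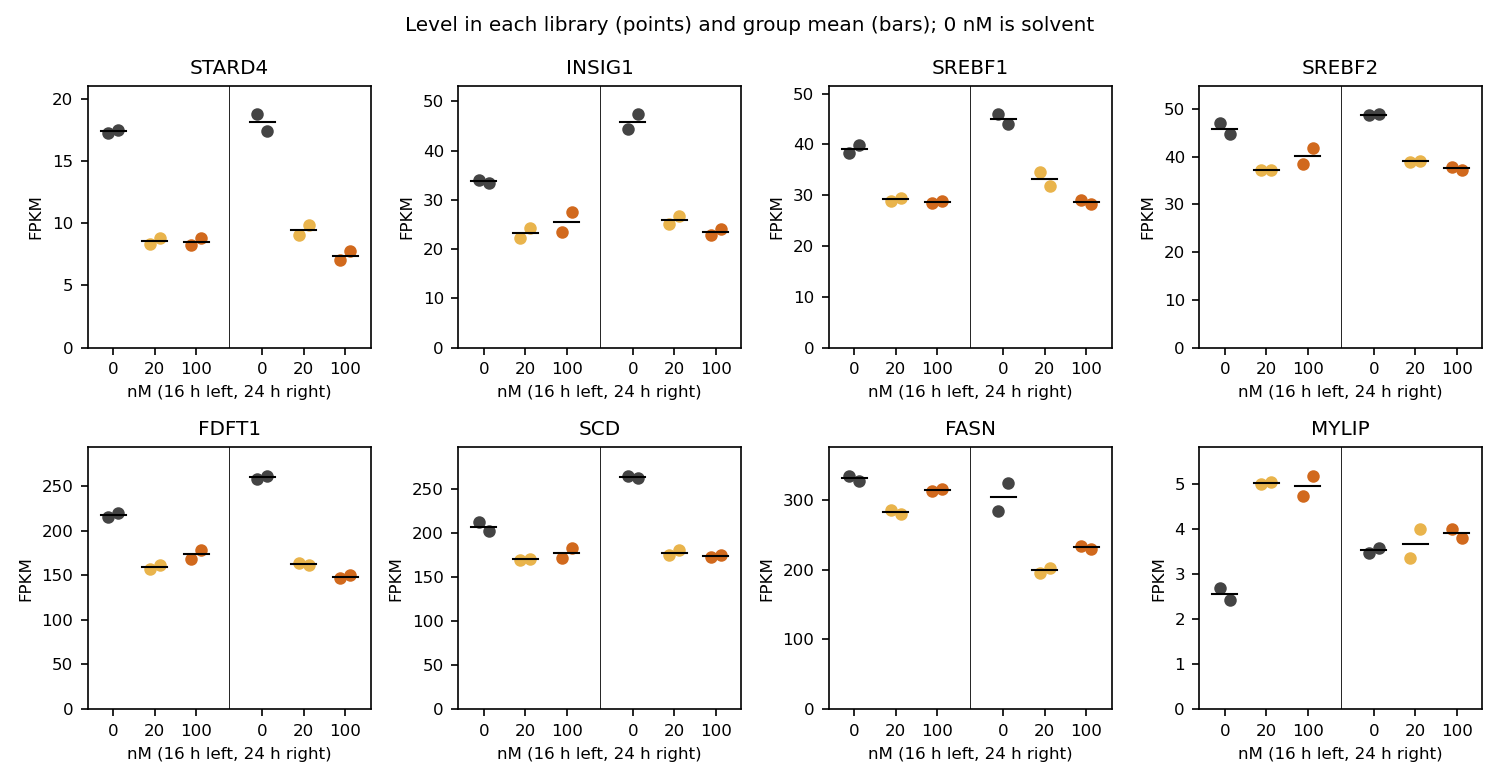
FPKM of 8 genes on axes from 0, with points for the 2 libraries of each group and bars for group means, 16 h to the left and 24 h to the right. STARD4, INSIG1, SREBF1, SREBF2, FDFT1 and SCD lie below solvent in every treated library, FASN lies well below solvent at 24 h, and MYLIP lies above solvent at 16 h.

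In the fatty acid arm, 3 of 7 genes fell with 20 nM and 2 with 100 nM at 16 h, and 6 and 5 fell at 24 h. SCD, the desaturase that makes monounsaturated fatty acids (chromosome 10, 100347124 to 100364834), fell in every comparison. SCD stood at 213 and 203 FPKM in solvent, 170.2 and 171 with 20 nM and 172 and 183 with 100 nM at 16 h. At 24 h these groups were at 266 and 263, 176 and 181, and 173 and 175 FPKM. Treated libraries kept to 170.2 to 183 FPKM at both times while solvent was higher at 24 h, and the groups did not overlap. The log2 changes were -0.28, -0.22, -0.57 and -0.60 (adjusted p = 0.00194, 0.00417, 5.13e-05 and 1.95e-05). FADS1, the delta-5 desaturase of polyunsaturated fatty acids, had levels at 24 h of 28.6 and 27.9 FPKM in solvent, 16.4 and 19.1 with 20 nM and 15.6 and 14.6 with 100 nM. It fell by the most of the called genes of the arm in all 4 comparisons. The log2 changes at 16 h and 24 h were -0.60 and -0.86 with 100 nM (adjusted p = 0.00327 and 0.000392) and -0.47 and -0.64 with 20 nM. FADS2, the delta-6 desaturase beside it, fell at 24 h with both doses (-0.61 and -0.60), and its 16 h changes of -0.19 and -0.22 did not pass. Annotated FADS1 and FADS2 overlap, so their reads may be shared, and FADS2 is also overlapped by the tested gene FEN1.

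FASN, which builds palmitate, had the highest level of the members in every library. FASN stood at 335 and 328 FPKM in solvent, 286 and 280.0 with 20 nM and 313 and 316 with 100 nM at 16 h. By 24 h the same groups were at 284 and 324, 196 and 202, and 234 and 229 FPKM. With 20 nM at 24 h both libraries were below every other library, and the mean was 34.6% lower than in solvent (log2 change -0.61, adjusted p = 0.000161). With 100 nM at 24 h the change was -0.39 (adjusted p = 0.000998). At 16 h it fell with 20 nM (-0.23, adjusted p = 0.0224), and 100 nM gave -0.075 (adjusted p = 0.361). ACLY, which supplies cytosolic acetyl-CoA to both arms, fell at 24 h with 20 nM (-0.38, adjusted p = 0.0255) and with 100 nM (-0.64, adjusted p = 0.00212). At 16 h ACLY did not pass in the main setting, and it passed as lower with the 16 h libraries alone (-0.30 with 20 nM and -0.19 with 100 nM). Its call with 20 nM at 24 h ended with no filter and with the 24 h libraries alone (adjusted p = 0.0749 and 0.0962, limma). Its 20 nM libraries at 24 h were far apart, at 117 and 156 FPKM beside 168 and 186 in solvent. ACACA, the acetyl-CoA carboxylase, fell with 20 nM at 24 h (-0.36, adjusted p = 0.0472), with 20.9 and 22.2 FPKM beside 31.8 and 24.4 in solvent.

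ELOVL6, the elongase of saturated fatty acids, passed nowhere and varied within groups, at 35.1 and 16.6 FPKM with 20 nM and 23.2 and 22.4 in solvent at 16 h. At 24 h it was at 19.2 and 73.7 FPKM with 20 nM, 16.1 and 17.0 with 100 nM and 25.6 and 48.2 in solvent. Leaving out 1 library ended the call with 20 nM at 16 h for FASN without library 1, 2, 5 or 6 (adjusted p = 0.0721 to 0.116) and FADS1 without library 1, 2, 5 or 6 (adjusted p = 0.0557 to 0.0792). With 20 nM at 24 h it ended for ACLY without library 7, 11 or 12 (adjusted p = 0.0523 to 0.138) and ACACA when any 1 of 9 libraries was left out (adjusted p = 0.0639 to 0.278). The ACLY change was -0.18 without library 7 and -0.59 without library 8, and the ACACA change -0.17 without library 11 and -0.54 without library 12. With no filter, the 20 nM calls of FASN at 16 h and ACACA at 24 h also ended. ACACA lost that call with a constant prior or the 24 h libraries alone as well.

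**Figure D3:**
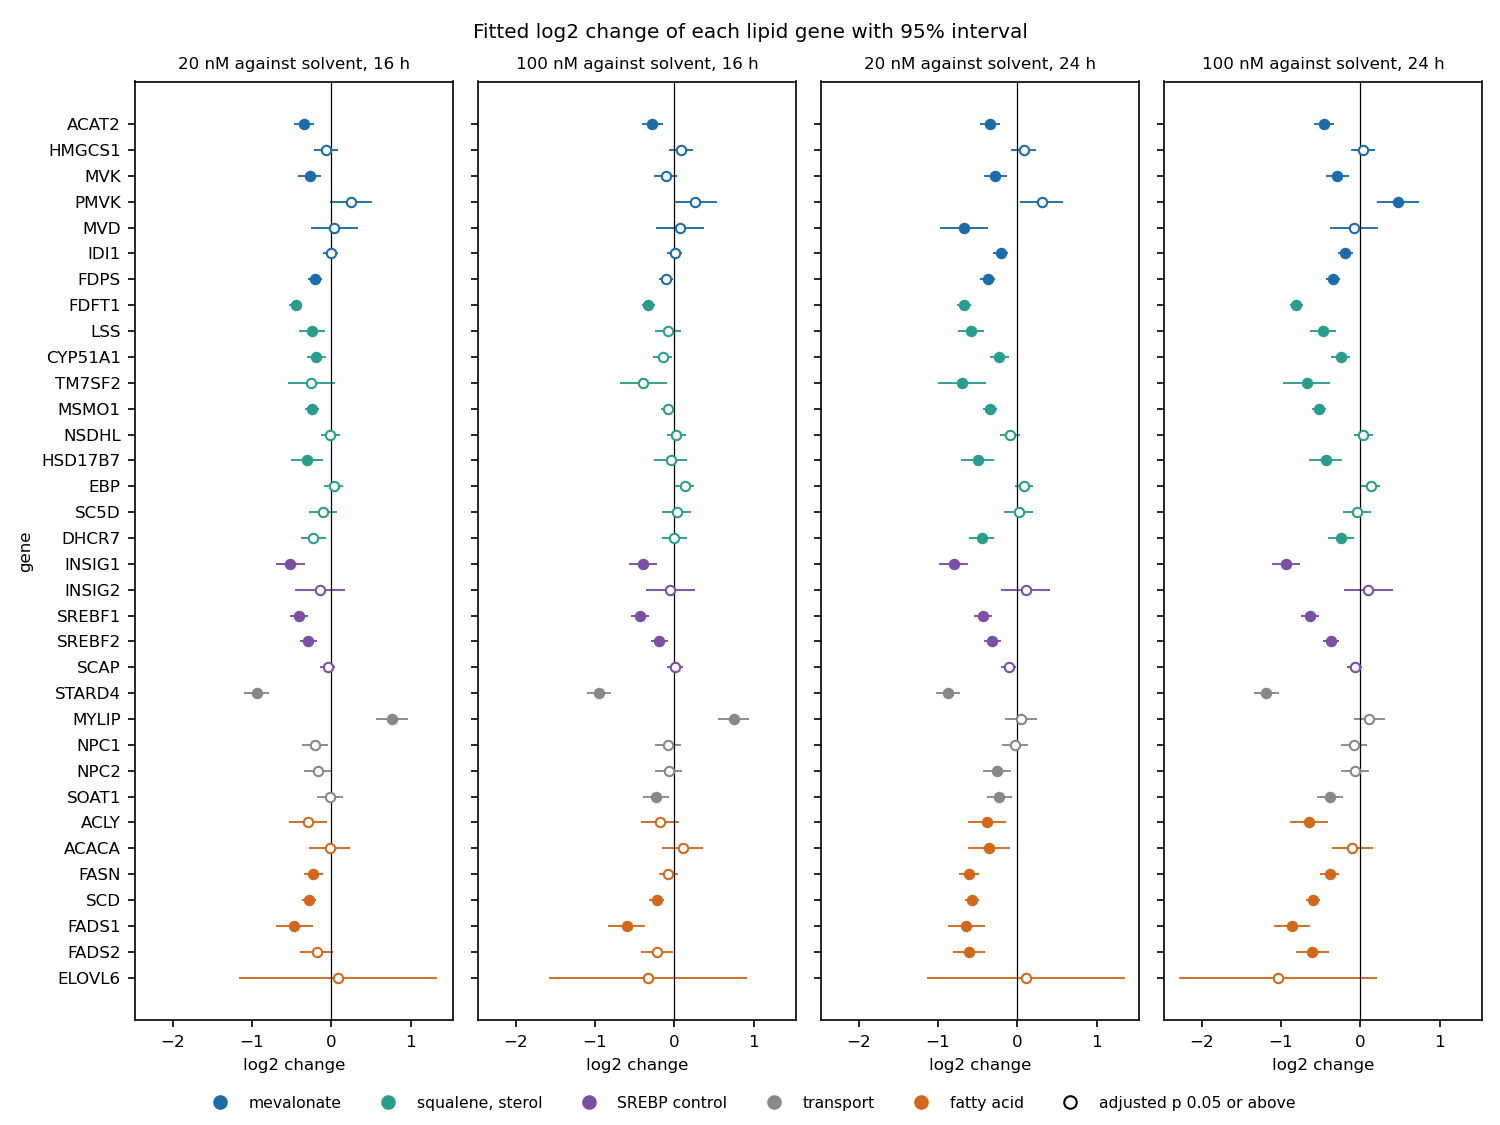
Fitted log2 change of each tested gene (x axis) with its 95% interval in the 4 drug comparisons, filled where the adjusted p was under 0.05 and coloured by role. Most filled points lie left of 0, with 15, 9, 24 and 21 genes lower, and STARD4 lies farthest left in each panel.

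The sterol and fatty acid arms were set side by side as 17 tested genes of sterol synthesis (mevalonate, squalene and sterol steps) and 7 of fatty acid synthesis. At 16 h the counts lower were 8 of 17 and 3 of 7 with 20 nM, and 2 of 17 and 2 of 7 with 100 nM. Of all tested genes, 11% and 14.7% were lower, so the 2 of 17 sterol genes (11.8%) were no more than that share. This depended on the scaling. By TPM, FDPS, CYP51A1 and TM7SF2 also passed as lower with 100 nM at 16 h, beside 17.6% of all genes lower. At 24 h the counts lower were 12 of 17 and 6 of 7 with 20 nM, and 11 of 17 and 5 of 7 with 100 nM. Beside them, 14.1% and 18.4% of all tested genes were lower. Median log2 changes of the sterol arm were -0.20, -0.048, -0.34 and -0.25. Those of the fatty acid arm were -0.23, -0.22, -0.57 and -0.60. The fatty acid median was thus the lower by 0.024, 0.18, 0.23 and 0.36, a difference between lists that carries no test.

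By library, the medians of the arms overlapped with 20 nM at 16 h, at -0.25 and -0.16 for sterol genes and -0.22 and -0.28 for fatty acid genes. With 100 nM at 16 h the sterol medians were near 0, at -0.060 and -0.038, and the fatty acid medians were -0.27 and -0.16. At 24 h both arms were lower in every treated library, the sterol genes at -0.27 to -0.35 and the fatty acid genes at -0.54 to -0.64. All tested genes had medians of -0.033 to 0.0047 in the treated libraries. Without 1 library in turn, the difference with 20 nM at 16 h ran from -0.031 to 0.12, so its sign was not kept, while the other 3 kept theirs. Rescaled to a common sum (TPM), the arms' medians with 20 nM at 24 h were -0.53 and -0.76, and the median of all genes shifted by -0.165. Rescaled to a common sum over nuclear genes, which leaves out the mitochondrial share, 26 members were called with 20 nM at 24 h, in place of 24.

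**Figure D4:**
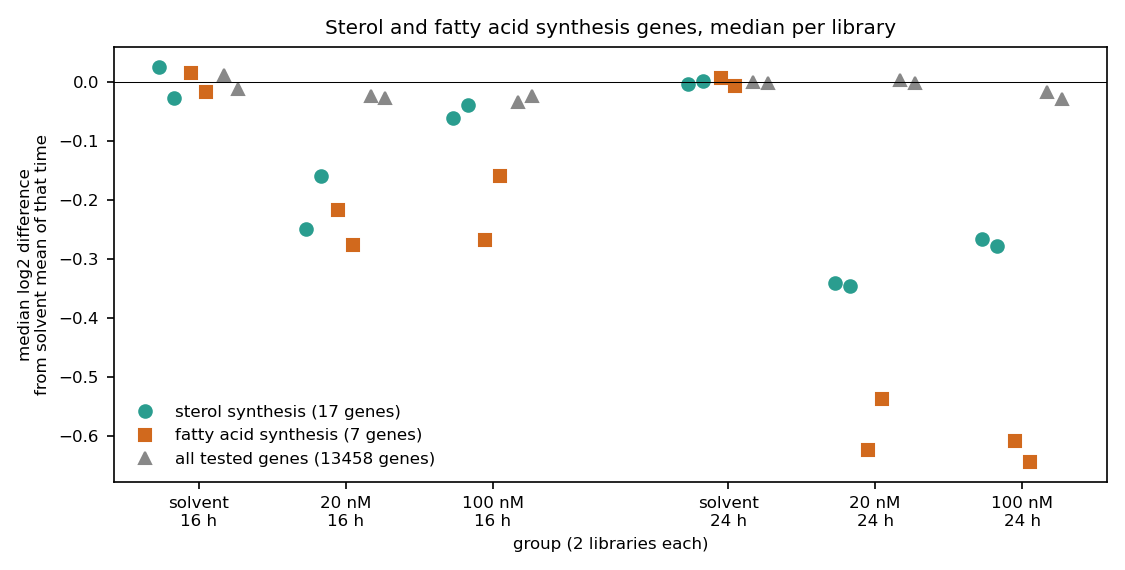
Median over genes of the log2(FPKM + 1) difference from the mean solvent level of the same time (y axis), per library, for 17 sterol synthesis genes, 7 fatty acid synthesis genes and all 13458 tested genes (x axis, 6 groups of 2 libraries). At 24 h the fatty acid medians, -0.54 to -0.64, lie below the sterol medians, -0.27 to -0.35, and all-gene medians stay near 0.

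The doses were compared directly. At 16 h, 0 of 34 members passed between 100 nM and 20 nM (limma, beside 0.32% of all tested genes), and 8 had an unadjusted p under 0.05 (23.5%, beside 12.1%). Both 100 nM libraries lay above both 20 nM libraries for 19 members (55.9%, beside 21.7%), 12 of them among the 17 sterol synthesis genes, and below for 2 (beside 23.6%). FDPS, for example, stood at 141 and 151 FPKM with 20 nM and 155 and 157 with 100 nM, and LSS at 22.2 and 22.4 and 25.3 and 24.8. The difference was -0.010 for STARD4 (95% interval -0.17 to 0.15) and 0.12 for INSIG1 (-0.057 to 0.30). At 24 h, 1 member was higher with 100 nM (beside 1.82%) and 2 were lower (beside 3.06%): MVD (0.59, adjusted p = 0.0420), STARD4 (-0.31, adjusted p = 0.0393) and MSMO1 (-0.18, adjusted p = 0.0383). Each of these 3 calls ended when any 1 of 9 or more libraries was left out (adjusted p = 0.0542 to 0.221 for MVD, adjusted p = 0.0547 to 0.211 for STARD4 and adjusted p = 0.0514 to 0.166 for MSMO1), and also with a constant prior or with the 24 h libraries alone. FASN had 0.22 (adjusted p = 0.0565) and passed with a minimum of 5 FPKM, by TPM and by median-of-ratios scaling. The count of 3 was 0 or 1 without any 1 library other than 7, and 5 without library 7. By TPM 3 were higher and 0 lower, by median-of-ratios scaling 2 and 0, and over nuclear genes 1 and 0.

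Solvent libraries also differed between the times. Between 16 h and 24 h in solvent, 6 members rose (17.6%, beside 3.14%) and 0 fell (beside 2.47%). They were INSIG1 (0.43), SCD (0.35), MSMO1 (0.29), FDFT1 (0.25), ACAT2 (0.24) and IDI1 (0.17), on the log2 scale. The count was 1 without library 5, 6, 11 or 12, and 11 without library 7 or 8. SCD kept its call without any 1 library. INSIG1, MSMO1 and FDFT1 lost it without library 5, 6, 11 or 12 (adjusted p = 0.0508 to 0.143), and ACAT2 lost it when any 1 of 10 libraries was left out (adjusted p = 0.0550 to 0.214), as did IDI1 when any 1 of 10 libraries was left out (adjusted p = 0.0632 to 0.231). With 20 nM, 4 members were higher at 24 h than at 16 h (beside 19%) and 5 lower (beside 10.7%), FASN by -0.51 and MVD by -0.58 among the latter. The 4 higher were ACAT2, MSMO1, SREBF1 and NPC1, and all 4 lost the call under TPM and under nuclear rescaling. By TPM 0 members were higher and 14 lower, beside 8.58% and 22.8% of all genes, and over nuclear genes 0 were higher and 6 lower. With 100 nM, 0 were higher (beside 16.4%) and 7 lower (beside 11.1%), with FASN (-0.44) and HSD17B7 (-0.35) changing most. INSIG1, by contrast, had changes of 0.15 with 20 nM and -0.11 with 100 nM that did not pass, and SCD 0.060 and -0.027. FASN kept its call with both doses, and FDFT1 (-0.23) with 100 nM, when any 1 library was left out and under every setting, and the other calls between times with drug did not. The 9 calls with 20 nM became 2, 3 and 5 without library 1, 2 and 8, and the 7 with 100 nM became 3, 4 and 2 without library 3, 9 and 10. Each time had its own libraries, so time and handling cannot be told apart.

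The drug's effect itself was tested for a difference between the times. With 20 nM, 5 of 34 members passed (14.7%, beside 4.46% of all tested genes lower), all with a lower change at 24 h and none with a higher one (beside 7.06%). The difference in log2 change was -0.72 for MYLIP (adjusted p = 0.00865), -0.71 for MVD (adjusted p = 0.0424), -0.38 for FASN (adjusted p = 0.0169), -0.29 for SCD (adjusted p = 0.0144) and -0.22 for FDFT1 (adjusted p = 0.0294). MYLIP kept its call when any 1 library was left out. The count was 2 or 3 without library 1, 2, 5, 6, 11 or 12. The call ended for MVD when any 1 of 8 libraries was left out (adjusted p = 0.0535 to 0.127), FASN without library 1 or 6 (adjusted p = 0.0533 to 0.0633), SCD without library 1, 2 or 11 (adjusted p = 0.0508 to 0.0539) and FDFT1 when any 1 of 6 libraries was left out (adjusted p = 0.0575 to 0.107). With 100 nM, 8 passed (23.5%, beside 4.29% lower and 5.87% higher), again all lower at 24 h. FDFT1 (-0.48, adjusted p = 0.00139), MSMO1 (-0.44, adjusted p = 0.00239) and SCD (-0.37, adjusted p = 0.00553) kept their calls when any 1 library was left out and under every setting. MYLIP (-0.63), INSIG1 (-0.54), LSS (-0.39), FASN (-0.31) and FDPS (-0.23) passed as well. The count was 3 to 5 without library 4, 5, 6, 9, 10 or 12. The call ended for MYLIP without library 4, 6, 10 or 12 (adjusted p = 0.0554 to 0.0581), INSIG1 without library 5, 6, 9 or 12 (adjusted p = 0.0562 to 0.0725), LSS when any 1 of 9 libraries was left out (adjusted p = 0.0691 to 0.133), FASN when any 1 of 9 libraries was left out (adjusted p = 0.0604 to 0.110) and FDPS when any 1 of 8 libraries was left out (adjusted p = 0.0690 to 0.108). By TPM, 15 differences with 20 nM and 10 with 100 nM passed, all lower, beside 15.6% and 6.67% of all genes lower. Across the 34 members, the changes at 16 h and at 24 h had a Pearson r of 0.686 and a Spearman rho of 0.696 with 20 nM, and 30 had the same sign. With 100 nM they had r = 0.835 and rho = 0.893, and 28 had the same sign, beside r = 0.185 and 0.382 over all tested genes. These are descriptions across genes, which are not independent replicates and share their libraries.

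Other genes of the same pathways were counted from lists. Of 10 further SREBP-linked genes, 1, 2, 5 and 5 fell in the 4 comparisons in the order used above, and 1 rose, in the last. The 1 of 10 with 20 nM at 16 h (10%) was no more than the 11% of all tested genes lower. ME1, the malic enzyme that supplies NADPH for lipid synthesis, fell in all 4 (-0.37, -0.31, -0.57 and -0.78). With 100 nM at 24 h the acetyl-CoA synthetase ACSS2 (-0.42), the sterol-regulated TMEM97 (-0.33), LPIN1 (-0.29) and FADS3 (-0.33) fell too, and the fatty acid carrier FABP5 rose (0.34). Of 10 genes of SREBP processing and sterol-regulated degradation, 2, 1, 2 and 2 rose and 3, 3, 1 and 2 fell. At 16 h the share lower was 30% with each dose, beside 11% and 14.7% of all tested genes. The shares higher then were 20% with 20 nM and 10% with 100 nM, beside 6.78% and 9.16%. At 24 h the shares lower were 10% with 20 nM and 20% with 100 nM, beside 14.1% and 18.4% of all tested genes. The share higher was 20% with each dose, beside 14.7% and 15.4%. The site-2 protease MBTPS2, which releases active SREBP, fell at 16 h with both doses (-0.30 and -0.22) and with 100 nM at 24 h (-0.42). SAR1A, a COPII GTPase, rose in all 4 (0.14, 0.13, 0.17 and 0.19).

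Of 9 genes of the isoprenoid branch, which leaves the pathway at farnesyl diphosphate, none passed at 16 h (0 with either dose, limma; 0 and 1 had an unadjusted p under 0.05) and 2 rose and 0 fell at 24 h with each dose. These were DHDDS of dolichol synthesis (0.32 and 0.26) and the prenyltransferase subunit RABGGTB (0.22 and 0.26). Of 5 tested genes of the liver X receptors and their targets, none rose and 2, 3, 2 and 2 fell, among them the receptor partner RXRA (-0.32, -0.38, -0.39 and -0.65) and the phospholipid enzyme LPCAT3 (-0.36, -0.45, -0.32 and -0.40), a known target. MYLIP, counted with the transport genes, is also such a target. Of 7 tested genes of sterol transport beyond the members, 0, 0, 2 and 3 fell and none rose, among them SCARB1, a lipoprotein receptor (-0.43 and -0.33 at 24 h). Of 8 genes of fatty acid oxidation, 1, 4, 1 and 3 fell and none rose. The 1 of 8 with 20 nM at each time (12.5%) was near the shares of all tested genes lower, 11% at 16 h and 14.1% at 24 h. In ACADVL, the very-long-chain dehydrogenase, the 16 h changes were -0.47 and -0.47. The shares of all tested genes given above for each comparison apply to these counts.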

How the data were processed

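RNA-seq libraries of HCT116 cells, 2 for each of 6 groups, were analysed. The deposited table gives FPKM per Ensembl gene as the authors made them, with RSEM 1.2.28 and the GRCh38 build per the submitters' processing notes. Aligner, annotation release, strand setting and read depth were not given in the sources used here. The library kit was directional, per the labels' protocols. Symbols came from GENCODE 29, which named 57836 of 58174 genes, and library columns were matched to groups by name.

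Genes with at least 1 FPKM in at least 2 of 12 libraries (13458) were tested. Means of the 6 groups were fitted to log2(FPKM + 1) by limma 3.58.1 under R 4.3.3 with a mean-dependent prior (6 residual and 2.98 prior degrees of freedom). Tests were two-sided, with Benjamini-Hochberg adjustment over all tested genes and calls at 0.05. Changes in percent compare group means of FPKM. The fit was checked on simulated data. Figures used matplotlib 3.10.9.

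The 36 genes, the lists and the motifs were chosen with earlier results of these data known. Every member could be named, and those given in full were the called members with the largest changes, the extremes of each arm, and SREBF1, SREBF2, INSIG1, INSIG2 and ABCA1. Levels shown for other members, and the listed genes outside the 36, were chosen after their values were seen. Alternatives were pseudocounts of 0.1 and 0.5, no filter or a minimum of 5 FPKM, median-of-ratios scaling or rescaling to a common sum (TPM), a prior held constant, one time's libraries alone and leaving out each library. Rescaling over nuclear genes and the comparison of 24 h with 16 h within each dose were added after the data were seen.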

Additional observations from a re-analysis of the deposited data

Results flagged for a closer look

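The drug's effect differed between 24 h and 16 h for 5 of the 34 tested genes with 20 nM and for 8 with 100 nM, by the interaction term of the limma fit at an adjusted p under 0.05. The value given for each is its log2 change against solvent at 24 h minus that at 16 h. With 20 nM it was -0.721 for MYLIP, -0.711 for MVD, -0.38 for FASN, -0.288 for SCD and -0.222 for FDFT1. With 100 nM it was -0.632 for MYLIP, -0.543 for INSIG1, -0.48 for FDFT1, -0.438 for MSMO1, -0.388 for LSS, -0.375 for SCD, -0.312 for FASN and -0.235 for FDPS.

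All 13 differences had the same sign, but MYLIP, FASN, SCD and FDFT1 were counted at both doses, which share their solvent libraries. For MYLIP the negative sign marks a rise against solvent at 16 h (0.77 and 0.75) that did not pass at 24 h. The levels that moved were not the same. SCD rose from 16 h to 24 h in solvent (0.35), as did FDFT1 (0.25), INSIG1 (0.43) and MSMO1 (0.29). FASN had a solvent change of -0.13 (adjusted p = 0.191) and fell between the times with 20 nM (-0.51) and with 100 nM (-0.44). MYLIP had a solvent change of 0.35 (adjusted p = 0.0522) and fell with 20 nM (-0.37) and 100 nM (-0.28). All of these values are on the log2(FPKM + 1) scale and each rests on 2 libraries a group. Groups of 2 libraries are too small for a test of single libraries that stand apart.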

How the results depend on the processing

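Every call between drug and solvent that was lost or gained under an alternative kept its direction. In all, 7214 gene-level results kept direction and side of the threshold, 324 lost the call, 134 gained one and 1 reversed. That one was FDFT1 with 20 nM at 24 h against 16 h, which had a change of -0.105 after rescaling to a common sum (TPM; adjusted p = 0.0447), beside 0.033 (adjusted p = 0.542).

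The 4 counts of members called against solvent moved by less than 1.5 times under every setting other than leaving out a library. Between doses at 24 h, 3 members were called in the main setting, 1 with no filter or with nuclear rescaling, 5 with a minimum of 5 FPKM, and 0 with a constant prior or the 24 h libraries alone. In solvent between times, 6 became 3 with no filter and 11 with TPM. The 8 differences of effect with 100 nM became 5 with no filter or a constant prior. The 5 with 20 nM became 15 with TPM, 3 with a constant prior and 9 with nuclear rescaling. Between times, the 9 with 20 nM (4 higher, 5 lower) became 14 with TPM, all lower, and 7 with 100 nM became 14 with nuclear rescaling. The gap between the arms' medians with 100 nM at 24 h was 0.356, and 0.396 or 0.379 with a pseudocount of 0.1 or 0.5. TPM shifted the median of all genes by -0.165 with 20 nM at 24 h, and for the rest the cause was not tested.

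Leaving out each library in turn gave 9 to 18 calls with 20 nM at 16 h (16 with all libraries), the 9 without library 1 or 5, 8 to 11 with 100 nM (10), 19 to 24 with 20 nM at 24 h (24) and 18 to 23 with 100 nM (22). It gave 0 to 5 between doses at 24 h (3), 1 to 11 in solvent between times (6), the 1 without library 5, 6, 11 or 12 and the 11 without library 7 or 8, 2 to 6 differences of effect with 20 nM (5) and 3 to 9 with 100 nM (8). Between times it gave 2 to 10 with 20 nM (9) and 2 to 8 with 100 nM (7). The gap between arms ran from -0.0313 to 0.118, 0.12 to 0.209, 0.193 to 0.283 and 0.318 to 0.367 (20 nM and 100 nM at 16 h, then at 24 h). A group left with 1 library is assumed to vary like the others. No paired analysis was possible because the table's columns carry a library number and not the sample number of the labels.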

Other observations

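RNF139, an endoplasmic reticulum ubiquitin ligase with a sterol-sensing domain (also called TRC8), changed in opposite directions at 16 h and 24 h. It fell at 16 h with 20 nM (-0.46, adjusted p = 0.00126) and 100 nM (-0.83, adjusted p = 2.94e-05) and rose at 24 h (0.33, adjusted p = 0.00408, and 0.19, adjusted p = 0.0382; log2 changes). At 16 h it stood at 23.3 and 21.3 FPKM in solvent, 15.8 and 16.1 with 20 nM and 12.0 and 12.3 with 100 nM. At 24 h its levels were 19.0 and 19.0, 25.0 and 23.2, and 22.4 and 21.0 FPKM, so the doses lay on opposite sides of solvent at the 2 times. The difference of the effect between times was 0.79 with 20 nM (adjusted p = 0.00131) and 1.02 with 100 nM (adjusted p = 0.000336). It was chosen after its values were seen.

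SQLE, the epoxidase that acts right after FDFT1, was listed at 0.15 to 0.62 FPKM, while its neighbours in the pathway, FDFT1 and LSS, were at 146 to 262 and at 16.9 to 28.7 FPKM. Why the table lists it so low was not tested.

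ELOVL6 differed within 3 groups in which the other fatty acid genes were closer. Library 1 exceeded library 2 by 1.04, library 8 exceeded library 7 by 1.89 and library 12 exceeded library 11 by 0.89, on the log2(FPKM + 1) scale. Of the 13458 tested genes, 7 had all 3 of these gaps above 0.5. The pairs and their direction were taken from the values of ELOVL6 itself, so this count is a description and no measure of rarity. ACLY showed a gap in the same direction between libraries 8 and 7, at 156 and 117 FPKM.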
